A study of Homo sapiens with 6 samples.

Results

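The genes described here encode the proteins that mark, load and fire replication origins and the proteins that copy DNA at the fork. The set is a list of 46 genes, all of which matched exactly 1 protein-coding gene of the GENCODE annotation of hg19, out of 20162 such genes. A promoter peak was a SMARCA4 region that overlapped the 1 kb on either side of the outermost 5' end of the gene record by at least 1 bp. A peak in the gene body lay further along the gene, up to its 3' end, and was not a promoter peak. The comparison throughout is with the 11612 coding genes whose 5' end is CpG-rich, meaning that the 1 kb centred on it has a GC content of at least 50% and a ratio of observed to expected CpG of at least 0.6.

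SMARCA4 was mapped by ChIP-seq in K562, an established human chronic myelogenous leukaemia line, in 3 ChIP libraries with an antibody against SMARCA4 and 3 input libraries of chromatin that skipped the antibody step. Both groups share the crosslinking, in which 30 min in disuccinimidyl glutarate at 2 mM preceded 10 min in formaldehyde at 1%, and fragments measured 150 to 400 bp. Whether the replicates are biological or technical is not settled, since the paper names the former and the deposited design text the latter. That text also counts 1 input, although the sample labels list 3. The deposited list holds 28265 regions seen in at least 2 of the 3 ChIP replicates, each given by its ends alone, so the list carries neither read depth nor replicate error for any value below. Regions were 1 to 10019 bp wide, so some were shorter than any fragment, and 16.4% were narrower than 200 bp. A width below is that of a listed region and may differ from the width of the peak in any 1 replicate. Intervals are 95% Wilson intervals of a share, cover counting error only and treat genes as independent, which neighbouring genes are not.

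In G1 the origin recognition complex binds origins, and CDC6 and CDT1 help it load the ring-shaped MCM helicase, a step called licensing that geminin (GMNN) blocks after S phase has begun. The DBF4-dependent kinase CDC7 and TOPBP1 then help CDC45 and the GINS complex to join the helicase, which unwinds DNA ahead of the polymerases, while PCNA, its loader RFC and the single-stranded DNA binding protein RPA serve the fork. Many of these genes are transcribed at the G1 to S transition under the control of E2F factors, and SMARCA4 is an ATPase of SWI/SNF complexes, which move nucleosomes at promoters and enhancers.

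The cell line label was checked with marker genes. All 10 erythroid and megakaryocytic genes chosen as K562 markers had a promoter peak, among them GATA1, TAL1 and KLF1, against 1 of 12 markers of T cells, B cells, liver, muscle, neurons and epithelium, the exception being SYN1 with a peak of 331 bp.

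A short sequence shared by many of the promoters is shown before the peak values. E2F words were searched on both strands as TTTCCCGC, TTTGGCGC and TTTCGCGC in the 300 bases from 250 bp upstream to 50 bp downstream of the 5' end. The words can overlap, so that TTTGGCGCGAAA counts as 2 matches. The promoters below are printed from hg19 in the direction of transcription, with the bases of every match in capitals. They were picked to show repeated words (MCM2, MCM5, MCM6), a word next to the start in a promoter with a peak (CDC6, MCM7, POLA2) and a word at a start with no peak within 1 kb (MCM5, GINS1, TOPBP1). CDC6, MCM2, MCM5 and MCM6 begin 200 bp upstream of the 5' end of the gene record and end with the first 50 bases of the gene. POLA2 begins 100 bp upstream of that end, and MCM7, GINS1 and TOPBP1 begin 100 bp upstream of the canonical coding transcript, the transcript that the annotation takes to stand for the gene.
CDC6, chr17:38443931-38444180, plus strand: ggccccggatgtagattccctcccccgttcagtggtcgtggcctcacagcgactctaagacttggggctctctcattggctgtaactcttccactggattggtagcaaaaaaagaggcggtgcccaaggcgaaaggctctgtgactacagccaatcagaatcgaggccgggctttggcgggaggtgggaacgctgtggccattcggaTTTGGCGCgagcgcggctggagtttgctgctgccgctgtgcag
MCM2, chr3:127317053-127317302, plus strand: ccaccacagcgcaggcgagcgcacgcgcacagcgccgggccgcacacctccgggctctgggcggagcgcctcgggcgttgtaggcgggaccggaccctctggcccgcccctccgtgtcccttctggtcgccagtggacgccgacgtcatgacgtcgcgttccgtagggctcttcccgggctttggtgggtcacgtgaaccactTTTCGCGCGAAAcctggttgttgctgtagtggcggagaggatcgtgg
MCM5, chr22:35795927-35796176, plus strand: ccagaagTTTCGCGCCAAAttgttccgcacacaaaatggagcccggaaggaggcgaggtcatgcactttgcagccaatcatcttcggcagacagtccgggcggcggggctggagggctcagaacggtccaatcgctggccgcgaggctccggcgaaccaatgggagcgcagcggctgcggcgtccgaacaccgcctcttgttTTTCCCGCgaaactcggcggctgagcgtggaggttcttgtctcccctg
MCM6, chr2:136633964-136634213, minus strand: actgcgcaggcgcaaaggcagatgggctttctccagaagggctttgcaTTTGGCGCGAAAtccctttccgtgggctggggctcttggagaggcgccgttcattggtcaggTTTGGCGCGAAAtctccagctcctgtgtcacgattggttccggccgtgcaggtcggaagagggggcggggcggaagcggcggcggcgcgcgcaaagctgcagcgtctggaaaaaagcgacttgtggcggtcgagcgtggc
MCM7, chr7:99698971-99699120, minus strand: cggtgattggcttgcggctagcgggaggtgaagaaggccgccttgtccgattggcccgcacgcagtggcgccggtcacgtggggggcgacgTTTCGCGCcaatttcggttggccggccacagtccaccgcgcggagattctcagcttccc
POLA2, chr11:65029284-65029433, plus strand: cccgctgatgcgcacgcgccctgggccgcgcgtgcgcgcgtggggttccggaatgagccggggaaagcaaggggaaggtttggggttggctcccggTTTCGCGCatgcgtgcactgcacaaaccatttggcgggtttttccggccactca
GINS1, chr20:25388209-25388358, plus strand: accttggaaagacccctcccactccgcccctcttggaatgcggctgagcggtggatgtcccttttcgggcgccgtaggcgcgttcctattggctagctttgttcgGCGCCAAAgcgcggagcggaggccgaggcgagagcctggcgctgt
TOPBP1, chr3:133380736-133380885, minus strand: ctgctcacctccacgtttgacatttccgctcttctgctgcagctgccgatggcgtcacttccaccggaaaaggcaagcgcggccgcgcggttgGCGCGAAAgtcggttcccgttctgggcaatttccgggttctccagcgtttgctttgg

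Such a word stood in the window of 13 of the 46 genes (28.3%, interval 17.3 to 42.6%), against 4.71% of the CpG-rich coding genes (547 of 11612). With the window placed at the canonical coding transcript in place of the gene record, 22 of 46 genes held one (47.8%, interval 34.1 to 61.9%), against 553 of 11412 CpG-rich genes (4.85%). These are the genes that have a canonical coding transcript among those CpG-rich at the gene record, so the window moved and the class did not. RefSeq starts could be placed for 40 of the genes, and 19 of these held one (47.5%), against 446 of 9073 CpG-rich genes (4.92%). The words were thus present in more of the replication promoters than of the background under each of these starts. At the gene records they stood in 5 of 30 other replication genes, 3 of 34 proteasome genes and 3 of 78 mitochondrial ribosomal protein genes. At canonical starts these counts were 6, 5 (14.7%, interval 6.45 to 30.1%) and 4. Of the 13 genes, 9 had a matched word inside their promoter peak: MCM2, MCM8, CDC6, CDT1, POLA1, POLA2, POLE, RFC3 and RPA2. The share of 69.2% (interval 42.4 to 87.3%) stood beside 50.8% of the CpG-rich coding genes with a word (278 of 547), which lay within the interval. Both shares include genes without a promoter peak. Among genes with a word and a promoter peak, the counts were 9 of 12 and 278 of 375. A promoter peak was present at 12 of the 13 genes with a word and 28 of the 33 without, against 68.6% and 61.5% in the background. In MCM3, MCM6 and PCNA the words lay outside the peaks, and MCM5 had no promoter peak. The 4 matches of MCM6, which overlap in pairs, began between -152 and -86 bp, negative values being upstream, whereas its peak began at 100 bp. Of the 19 matches in the windows at the gene records, 14 began between 100 bp upstream and 50 bp downstream of the 5' end. A match is a description of letters, and no binding of an E2F factor was measured.

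The other words gave smaller differences. NF-Y words (CCAATC or CCAATG) stood in 18 of the 46 windows (39.1%, interval 26.4 to 53.5%), against 28.2% of CpG-rich coding genes, and in 20 windows at canonical starts (43.5%, interval 30.2 to 57.8%), against 29.8%. The SP/KLF word GGGCGG stood in 25 windows (54.3%, interval 40.2 to 67.9%), against 74.9%, and in 33 windows at canonical starts (71.7%, interval 57.5 to 82.7%), against 78.8%. Of the 37 replication genes with a CpG-rich 5' end, 24 held the SP/KLF word at the gene record (64.9%, interval 48.8 to 78.2%), an interval that holds the background share, and 17 held an NF-Y word (45.95%, interval 31.0 to 61.6%), an interval above it. ETS words (CCGGAAG) were found in 7 windows, NRF1 words (CGCATGCGC) in 3, YY1 words (AAGATGGC) in 3 and GATA words (AGATAA or TGATAA, and AGATAG or TGATAG) in 6, with background shares of 17.5%, 3.78%, 4.07% and 12.5%. Of the 6 genes with a GATA word, 1 was among the 37 with a CpG-rich 5' end (2.70%, interval 0.479 to 13.8%). At RefSeq starts 0 of 32 such genes held one (upper bound 10.7%), against 12.1% in the background. AP-1 words (TGAGTCA or TGACTCA) were in 0 of 46 windows, with an upper interval bound of 7.71%, against 1.99% of CpG-rich genes. At the gene records the background share lay within the interval of the 46 genes for all of these words but SP/KLF. At canonical starts it lay within it for SP/KLF and below it for NF-Y. At RefSeq starts NF-Y words stood in 16 of 40 windows (40.0%, interval 26.35 to 55.4%). The background share there, 29.5%, lay within that interval.

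**Figure D1:**
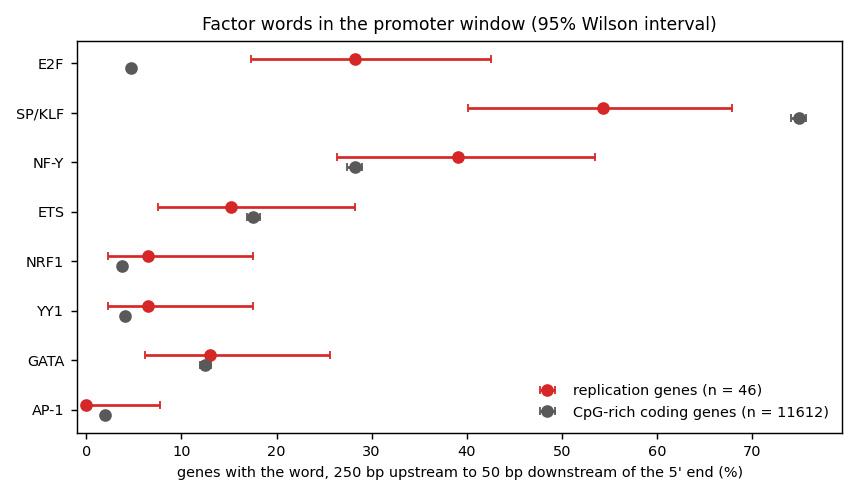
Share of genes (x axis, %) with each factor word in the 300 bases around the 5' end, for the 46 replication genes (red) and the 11612 CpG-rich coding genes (grey), with 95% Wilson intervals as bars. E2F words stand at 28.3% against 4.71%, and SP/KLF words at 54.3% against 74.9%.

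SMARCA4 peaks lay at the promoters of 40 of the 46 replication genes (87.0%, interval 74.3 to 93.9%). The share was 61.8% over the CpG-rich coding genes (7180 of 11612, interval 60.9 to 62.7%) and 42.3% over all coding genes. Among the 37 replication genes whose own 5' end is CpG-rich, 35 had a peak (94.6%, interval 82.3 to 98.5%), and among the 9 others 5 had one (interval 26.7 to 81.1%), against 15.7% of the coding genes without a CpG-rich 5' end (1346 of 8550). Of the 30 other replication genes listed for comparison, such as TIMELESS, CLSPN, RRM2 and TYMS, 25 had a promoter peak (83.3%, interval 66.4 to 92.7%), the exceptions being RNASEH2A, MTBP, CHAF1B, DSCC1 and TOP2A. Proteasome genes had one in 29 of 34 cases (85.3%, interval 69.9 to 93.5%) and mitochondrial ribosomal protein genes in 62 of 78 (79.5%, interval 69.2 to 87.0%), so a high share was seen in gene groups outside DNA replication as well.

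**Figure D2:**
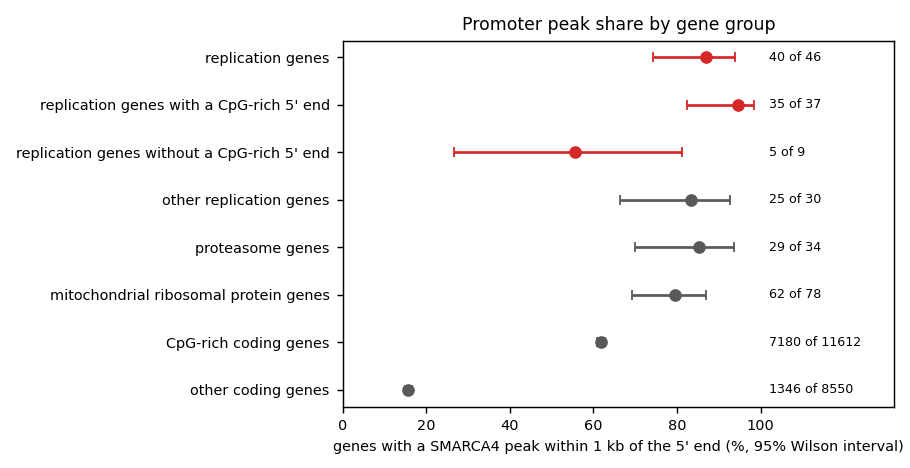
Share of genes with a SMARCA4 peak within 1 kb of the 5' end (x axis, %), with 95% Wilson intervals as bars and counts at the right. The replication genes (red, 40 of 46) sit near the proteasome genes (29 of 34) and above the CpG-rich coding genes (7180 of 11612).

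The share in the background rose with CpG content, from 50.6% in the lowest of 4 classes of CpG-rich genes, split evenly by CpG ratio at 0.72, 0.80 and 0.87, to 70.8% in the highest. The replication genes had a peak in 4 of 4, 5 of 5, 16 of 18 and 10 of 10 genes in the same classes from low to high. In 4 classes of GC content, split at 59.0, 63.9 and 69.2%, the background moved less, between 58.8% and 63.6%, and the replication genes had 16 of 17, 11 of 12, 5 of 5 and 3 of 3 from low to high GC. The median GC content at the 5' end was 58.0% for the 46 genes and 63.9% for the CpG-rich coding genes.

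**Figure D3:**
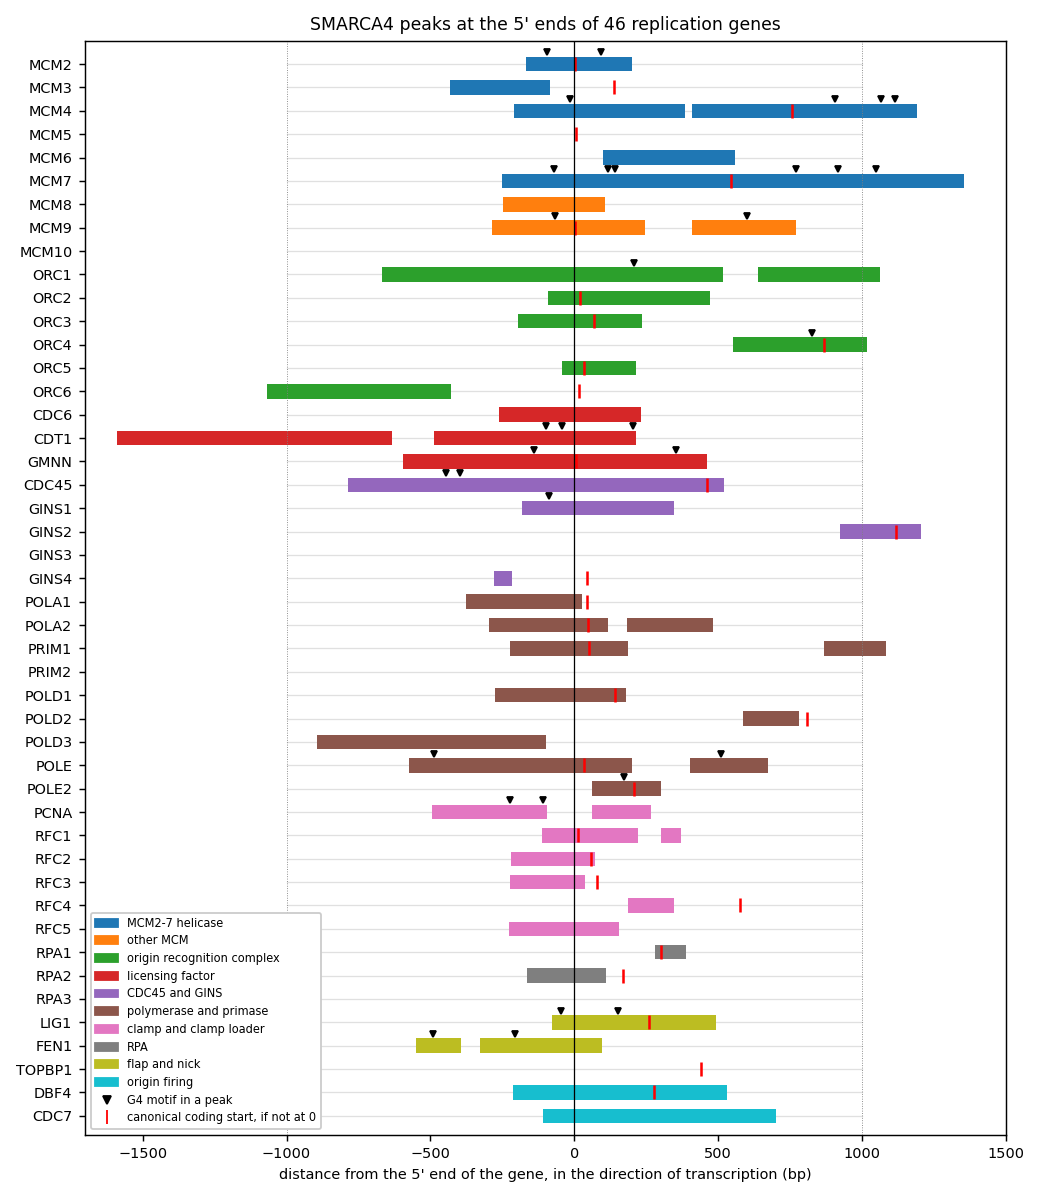
Promoter peaks of the 46 replication genes (bars, coloured by role) by distance from the 5' end of the gene in bp, with G4 motifs inside peaks (triangles) and the canonical coding start where it lies elsewhere within the plot (red ticks). Peaks of 28 genes cover the 5' end itself, and MCM5, MCM10, GINS3, PRIM2, RPA3 and TOPBP1 have no bar.

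All 6 genes of the origin recognition complex had a promoter peak. ORC1, the largest subunit and an ATPase, had a peak of 1184 bp from -667 to 516 bp and another of 424 bp from 639 to 1062 bp. ORC2, ORC3 and ORC5 each had 1 peak over the 5' end, of 563, 430 and 256 bp. At ORC4 the peak of 467 bp began 551 bp downstream and covered the canonical start at 867 bp. The same peak covers the 5' end of MBD5 on the other strand. At ORC6 the peak of 641 bp lay wholly upstream, from -1068 to -428 bp. The 3 licensing genes all had peaks over the 5' end. CDC6, the ATPase that joins the origin complex in G1, had 492 bp, and GMNN, the inhibitor of CDT1, had 1054 bp from -594 to 459 bp. CDT1 had a peak of 703 bp over the 5' end and another of 955 bp that began at -1590 bp and ended at -636 bp, partly beyond the window.

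The ring of the replicative helicase is built from MCM2 to MCM7, and 5 of these 6 genes had a promoter peak. MCM7 carried the widest promoter peak of the whole set, 1607 bp from -252 to 1354 bp, wider than 97.7% of the promoter peaks of CpG-rich coding genes. MCM4 had adjacent peaks of 596 and 780 bp, separated by a short gap, and MCM2 had 370 bp over the 5' end. The remaining peaks of the helicase genes lay beside the 5' end. At MCM3 the peak of 347 bp ended at -86 bp, and at MCM6 the peak of 459 bp lay downstream, from 100 to 558 bp. MCM5 had no promoter peak although its 5' end is CpG-rich (GC 61.7%, CpG ratio 0.83), and its nearest peak was 22784 bp away. Among the related genes, MCM8, which acts in recombination with MCM9, had a peak of 355 bp, and MCM9 had peaks of 533 and 362 bp. MCM10, a fork protein that stimulates the helicase, had none and its nearest peak was 107319 bp away, also with a CpG-rich 5' end (GC 56.6%, CpG ratio 0.82).

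CDC45, the partner of the active helicase, had the second widest promoter peak, 1307 bp from -785 to 521 bp. Of the GINS genes, GINS1 had 527 bp over the 5' end of its record, GINS2 had 283 bp that began at 923 bp, GINS4 had 61 bp from -279 to -219 bp, and GINS3 had none. The 61 bp at GINS4 made the narrowest promoter peak of the set. GINS2 was also the member closest to the edge of the 1 kb window, and no member had its nearest peak between 1 and 2 kb. The members just outside were MCM5 at 22784 bp and GINS3 at 29204 bp. Of the genes for firing, CDC7 (811 bp, from -109 to 701 bp) and its regulatory subunit DBF4 (743 bp, from -212 to 530 bp) had wide peaks over the 5' end, whereas TOPBP1 had none within 82767 bp.

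Polymerase alpha (POLA1, POLA2) and primase start each new strand, which polymerases delta (POLD1, POLD2, POLD3) and epsilon (POLE, POLE2) extend. Of these 9 genes 8 had a promoter peak. POLA1 (405 bp) and POLD1 (454 bp) had 1 peak over the 5' end, and POLA2 (415 and 297 bp), the primase PRIM1 (413 and 217 bp) and POLE (777 and 269 bp), the catalytic subunit of the leading-strand polymerase, had 2 each. At POLD2 (194 bp) and POLE2 (239 bp) the peak lay downstream of the 5' end, beginning at 588 and 61 bp. POLD3 had 796 bp upstream, from -894 to -99 bp, a peak that covers the 5' end of LIPT2 on the other strand. PRIM2, the large primase subunit, had no promoter peak. Its 5' end is not CpG-rich (GC 41.1%, CpG ratio 0.27), and its nearest peak was 92445 bp away.

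The loader RFC places the PCNA clamp, which holds polymerases on DNA, around the template. All 6 of these genes had a promoter peak, with a median width of 277 bp over 8 peaks, none wider than 397 bp. PCNA, the clamp, had peaks of 397 bp (from -493 to -97 bp) and 206 bp (from 62 to 267 bp) on either side of the 5' end. The peak of 397 bp covers the 5' end of CDS2 on the other strand. RFC1 had 332 and 71 bp, and RFC2 (293 bp), RFC3 (261 bp) and RFC5 (382 bp) had peaks over the 5' end, whereas the peak of 159 bp at RFC4 began at 186 bp. RPA coats single-stranded DNA, and its genes had the lowest median width of any role, with 276 bp over the 5' end of RPA2 and 110 bp at RPA1 beginning at 279 bp, and RPA3 had none. FEN1, the flap nuclease, had 426 bp over the 5' end and 156 bp upstream of it, and LIG1, the ligase that joins Okazaki fragments, had 569 bp from -78 to 490 bp.

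Over all 50 distinct promoter peaks the median width was 414 bp (95% binomial interval of the median 347 to 492 bp), with 25% of peaks at or below 278 bp and 25% at or above 589 bp. The 8031 promoter peaks of CpG-rich coding genes had a median of 444 bp. At least 1000 bp was reached by 4 of the 50 peaks (8%), against 11.7% in the background, and these were the peaks of MCM7, CDC45, ORC1 and GMNN. The CDT1 peak of 955 bp was the fifth widest. Widths differed between the roles, from a median of 193 bp over 2 peaks of the RPA genes to 829 bp over 4 peaks of the licensing genes, but each of these medians rests on few peaks.

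**Figure D4:**
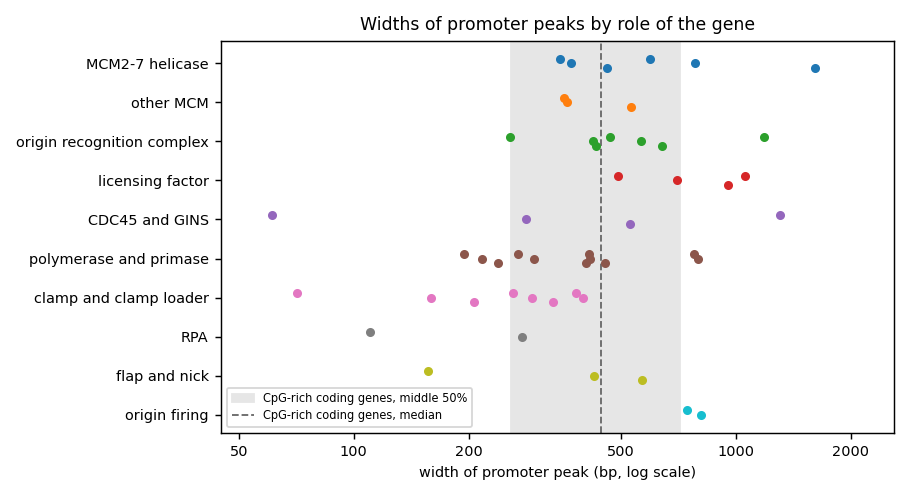
Width of each promoter peak (x axis, bp, log scale) by role of the gene. The grey band spans the middle 50% of promoter peaks of CpG-rich coding genes and the dashed line is their median of 444 bp; the peaks of the clamp and clamp loader genes do not exceed 397 bp.

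More than 1 promoter peak was present at 10 genes (21.7%), against 16.4% of CpG-rich coding genes. Counted among genes with a promoter peak, these were 10 of 40 and 1908 of 7180. The 10 replication genes were MCM4, MCM9, ORC1, CDT1, POLA2, PRIM1, POLE, PCNA, RFC1 and FEN1. The 5' end itself lay inside a peak in 28 genes (60.9%, interval 46.5 to 73.6%), against 47.9% of CpG-rich coding genes. Among genes with a promoter peak, the 5' end lay inside one in 28 of 40 replication genes and in 5563 of 7180 CpG-rich coding genes. The shares over all genes thus also depend on how many genes have a promoter peak. In the other 12 replication genes with a promoter peak the 5' end lay outside it, namely MCM3, MCM6, ORC4, ORC6, GINS2, GINS4, POLD2, POLD3, POLE2, PCNA, RFC4 and RPA1. The midpoints of the 50 promoter peaks had a median of 17.5 bp, and 24 of them lay upstream of the 5' end (48.0%), as did 50.8% of midpoints in the background. The base 200 bp downstream lay inside a peak in 23 of the 46 genes (interval 36.1 to 63.9%), not all of which had the 5' end inside one, against 35.2% of CpG-rich coding genes. Counted among genes with a promoter peak, these were 23 of 40 and 4087 of 7180. At RefSeq starts that base lay inside a peak in 15 of the 40 genes with such a start (37.5%, interval 24.2 to 53.0%), against 31.7%. At -500 bp from the gene record the shares of all genes were 15.2% and 14.8%. Of the 50 peaks, 38 touched an exon of a coding transcript of the gene (interval 62.6 to 85.7%), against 70.9% in the background.

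**Figure D5:**
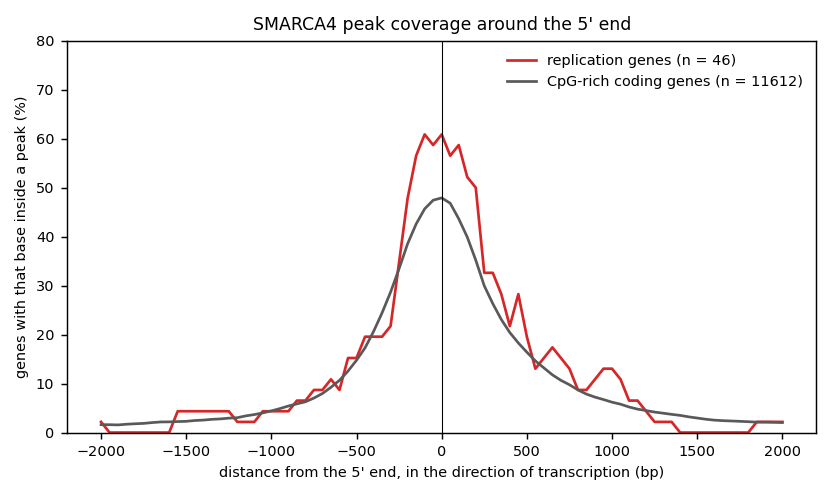
Share of genes (y axis, %) whose base at each distance from the 5' end (x axis, bp, steps of 50 bp) lies inside a SMARCA4 peak, for the 46 replication genes (red) and the 11612 CpG-rich coding genes (grey). At the 5' end the shares are 60.9% and 47.9%, of all genes with or without a promoter peak.

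The position of the 5' end mattered for a few genes, because the gene record also takes in upstream transcripts that are not the canonical one. In 7 genes the canonical coding transcript began more than 1 kb from the end of the record: GINS1 (16665 bp downstream), GINS2 (1119 bp), GINS3 (97391 bp), PRIM2 (2825 bp), POLD3 (98731 bp), PCNA (6668 bp) and RFC5 (3115 bp). At the canonical start GINS3 had a peak of 79 bp within 11 bp of it, and POLD3 had one of 240 bp over it. GINS1 and RFC5 had no peak within 1 kb of the canonical start, their nearest peaks being 16321 and 2961 bp away. The peak at the record of GINS1 covers the 5' end of ABHD12 on the other strand. The peak at the record of RFC5 has a GC content of 42.1%, whereas the 1 kb around its canonical start has 59.9%. RPA3 had a peak of 825 bp, 77411 to 78235 bp into its record, which lies within 1 kb of coding starts of RPA3 and covers the 5' end of UMAD1. With canonical starts 39 of 46 genes had a promoter peak, against 61.65% of the CpG-rich class at these starts (7877 of 12778). With any coding start allowed 42 had one, against 62.55% of the CpG-rich class there (8511 of 13606). MCM5, MCM10, PRIM2 and TOPBP1 had none at any coding start.

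At the 5' ends of the gene records, many of the genes share their promoter region with a neighbour. For GINS1, GINS3, POLD3 and PCNA, which are among them, that end lies more than 1 kb from the canonical start. The pairs were not counted again at canonical starts. A coding 5' end of the other strand lay within 1 kb in 19 of the 46 genes (41.3%, interval 28.3 to 55.7%), against 2278 of 11612 CpG-rich coding genes (19.6%). In 12 of the 19, a single peak covered the 5' ends of both genes (63.2%, interval 41.0 to 80.8%), against 1024 of 2278 in the background (44.95%), a share within that interval. MCM4 and PRKDC, the catalytic subunit of the DNA-dependent protein kinase, have 5' ends 7 bp apart, and ORC3 and RARS2 lie 39 bp apart, MCM8 and TRMT6 94 bp, MCM2 and TPRA1 143 bp, ORC1 and PRPF38A 179 bp, CDC45 and UFD1 255 bp and MCM7 and AP4M1 391 bp. The other 12 genes and their partners were ORC4 and MBD5, ORC6 and VPS35, GINS1 and ABHD12, GINS3 and PRSS54, PRIM1 and HSD17B6, POLD3 and LIPT2, POLE and PXMP2, PCNA and CDS2, RPA1 and SMYD4, LIG1 and ZSWIM9, FEN1 and TMEM258, and DBF4 and SLC25A40. A peak over such a pair cannot be assigned to either gene. Of the 19 genes with a partner 18 had a promoter peak, and of the 27 without one 22 had a peak (81.5%, interval 63.3 to 91.8%). The matching background shares were 78.0% with a partner and 57.9% without.

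G4 motifs, sequences with 4 runs of at least 3 guanines and loops of 1 to 7 bases on either strand, were counted where they lay wholly inside a promoter peak. A motif marks letters that can fold, and no folding was measured here. Some of the motifs of MCM7, which had the most, and those of CDT1, CDC45, GMNN and MCM2 are printed from hg19 on the strand that carries the guanines, with the guanine runs in capitals.
MCM7, chr7:99698502-99698523, plus strand: GGGGaGGGcgcGGGaacctGGG
MCM7, chr7:99698780-99698807, minus strand: GGGGGaccGGGGtcggcGGGttctGGGG
MCM7, chr7:99699411-99699433, plus strand: GGGGctGGGaaGGGGcggaGGGG
MCM7, chr7:99699436-99699456, plus strand: GGGcGGGaGGGGcgcccaGGG
MCM7, chr7:99699622-99699644, plus strand: GGGGtcccgtcGGGccGGGtGGG
CDT1, chr16:88870090-88870110, minus strand: GGGGGGaGGGaaGGGacGGGG
CDT1, chr16:88870141-88870166, plus strand: GGGGGcGGGGccaGGGcgcccgcGGG
CDT1, chr16:88870391-88870410, minus strand: GGGGGcggcGGGcGGGcGGG
CDC45, chr22:19466524-19466541, minus strand: GGGGcaGGGcGGGGcGGG
CDC45, chr22:19466573-19466593, minus strand: GGGcagcGGGcGGGGGctGGG
GMNN, chr6:24775007-24775030, plus strand: GGGtcggaGGGGaGGGtcaaaGGG
GMNN, chr6:24775503-24775523, plus strand: GGGagccGGGGcGGGGttGGG
MCM2, chr3:127317147-127317172, minus strand: GGGacacggaGGGGcGGGccagaGGG
MCM2, chr3:127317337-127317358, plus strand: GGGcGGGcgccGGGGacatGGG

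Such a motif stood in a promoter peak of 15 genes, which is 37.5% of the 40 genes with a promoter peak (interval 24.2 to 53.0%), against 52.2% of the CpG-rich coding genes with one. As a share of all 46 genes it was 32.6% (interval 20.9 to 47.0%), against 32.3% of all CpG-rich coding genes. MCM7 had 6 motifs, MCM4 had 4, CDT1 had 3, and MCM2, MCM9, CDC45, POLE, PCNA, LIG1, FEN1 and GMNN had 2 each. ORC1, ORC4, GINS1 and POLE2 had 1 each. The 61.1% of genes with a motif among the 18 with a partner gene and a peak contrasted with 18.2% of the 22 with a peak but no partner (intervals 38.6 to 79.7% and 7.31 to 38.5%), whereas in the background the shares were 45.1% and 54.6%. This difference was seen in the data and was not tested. Motifs were counted only inside peaks, and the promoter peaks of genes with a partner were wider, with a median of 448.5 against 354.5 bp. At least 2 promoter peaks were present at 6 of the 19 genes with a partner and 4 of the 27 without. In the background the median widths were 439.5 and 445.5 bp. How far peak width and number bear on the motif shares was not tested. Of the 33 motifs, 15 had their guanines on the coding strand of the gene (45.5%, interval 29.8 to 62.01%), against 53.3% in the background, and 16 were centred upstream of the 5' end (48.5%, interval 32.5 to 64.8%), against 45.9%. Both background shares lay within the intervals. The promoter peaks had a median GC content of 66.4%, close to the 66.5% of the background.

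Peaks in the gene body were present in 12 of the 46 genes (26.1%, interval 15.6 to 40.3%), against 32.5% of CpG-rich coding genes. The 21 peaks correspond to 0.802 per 100 kb of gene body, against 0.918 in the background. With 1 kb around every coding start left out, 11 genes had a body peak (23.9%), 15 peaks in all, against 26.5% of CpG-rich coding genes. The 21 body peaks were narrower than the promoter peaks, with a median width of 243 bp and a median GC content of 44.4%, against 339 bp and 48.0% for body peaks of CpG-rich coding genes. A G4 motif was in 0 of 21 (upper interval bound 15.5%), against 14.8% of those background peaks (1146 of 7765), a share within the interval. Only introns were touched by 15 of them, and 6 touched an exon of the gene (28.6%, interval 13.8 to 49.96%), against 21.4% in the background. MCM9 had the most, with 6. Its peak of 1468 bp, 40263 to 41730 bp into the gene, covers the 5' end of ASF1A, a histone chaperone gene transcribed from within MCM9, and a peak of 224 bp lies 941 bp from that end. The other 4 MCM9 peaks, of 794, 145, 177 and 124 bp, were intronic and lay near no coding start. POLD3 had 3 peaks, of which the 240 bp at 98608 bp covers its canonical start and those of 243 and 269 bp do not lie near a start. GINS3 had 2, the 79 bp at its canonical start and 336 bp in an intron 65011 bp along, and PCNA had 2, of 36 bp near its canonical start and 416 bp beginning at 3386 bp. ORC1 (327 bp), ORC5 (151 bp), POLA2 (532 bp), RFC4 (116 bp), RFC5 (395 bp), RPA1 (360 bp), LIG1 (129 bp) and RPA3 (825 bp) had 1 each.

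Of the 21 body peaks, 4 lay within 1 kb of another coding start of the same gene and 3 within 1 kb of the 5' end of another coding gene, leaving 15 away from both, since the RPA3 peak counts in both classes. GATA words were present in 10 of the 21 (47.6%, interval 28.3 to 67.6%), against 61.9% of the 7765 body peaks of CpG-rich coding genes, and AP-1 words in 4 (interval 7.67 to 40.0%), against 21.4%. The background peaks were wider, so the chance that a peak holds a short word differs with width between the sets.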

How the data were processed

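SMARCA4 ChIP-seq and input libraries of K562 cells were processed by the authors with cutadapt 1.16 (trimming), BWA 0.7.15 (alignment, hg19), Picard 2.14.0 and SAMtools 1.6 (duplicate removal), MACS2 2.1.1 (peaks of each replicate at a q threshold of 0.05) and bedtools 2.26.0 (regions of at least 2 of 3 replicates). Each deposited region has only a chromosome, a start and an end, so the unit is other than a count or a level, and the depth of each library is not part of the list. All regions lay within their chromosome, and 0 touched another.

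Genes came from GENCODE 44 mapped to hg19, on chromosomes 1 to 22, X and Y. Starts of RefSeq (GRCh38) were placed on hg19 by exact match of their 300-base promoter, which succeeded for 40 of the 46 genes. Work was done in Python 3.11.15 with numpy 2.4.6, scipy 1.17.1 and matplotlib 3.10.9, and the overlap, motif and interval code was tested on simulated data. The members and lists were chosen with earlier results of these data known, so no enrichment or placement test was made. All members are named by role, and in full those with no promoter peak, with several or with 1 of the 5 widest, with the most G4 motifs, with body peaks, or with a 5' end outside their peak. The sequences printed, and the genes of other lists named as examples or exceptions, were chosen after their values were seen. The alternatives were other region filters, windows, starts, overlaps, gene sets and motif definitions.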

Additional observations from a re-analysis of the deposited data

How the results depend on the processing

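No paired analysis was possible because replicates were merged into 1 set of regions without separate values, and for the same reason no replicate could be left out. Of 61 recomputed values, 49 stayed within the 95% interval of the value reported and 12 did not; the cause was not tested unless stated. The interval of the background share is narrow, since it rests on 11612 genes. The promoter peak share of CpG-rich coding promoters was 58.1% with regions of at least 200 bp, 60.6% with a window of 500 bp, 62.8% with a window of 2 kb, 62.9% on autosomes, 57.9% without genes that have a partner on the other strand, 66.5% with the stricter CpG-rich definition and 63.9% with RefSeq starts, an alternative chosen after seeing the data. The RefSeq value is 6268 of 9809 genes, not of the 9073 that are CpG-rich at the gene record. The class and the genes covered thus changed along with the start. The share of the 46 genes themselves ranged from 78.3% (regions of at least 200 bp) to 91.3% (any coding start). The share with the 5' end inside a peak was 73.9% when any coding start counted, where more positions per gene are tried. The share with an E2F word was 63.0% at any coding start and 47.8% within 500 bp either side, where more or longer windows hold more words by construction. These shares and the 73.9% have no background share beside them, so no comparison with CpG-rich coding genes is drawn from them. The share with an E2F word was 47.8% at canonical and 47.5% at RefSeq starts, with 1 window of the same length per gene, and there the cause was not tested. The depth of the libraries may limit which weaker regions entered the list, which was not tested, and the absence of a peak is not evidence that SMARCA4 was absent.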
